A study of Mus musculus with 4 samples.

Results

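The genes described here are those of the small heat shock proteins of the heart, Cryab, Hspb1, Hspb2, Hspb3, Hspb6, Hspb7 and Hspb8, together with Bag3, whose protein works as a partner of Hspb8. The data are CCGG sites in genomic DNA, and a site was counted for a gene where it lay within the gene's RefSeq span on the mouse assembly GRCm38.p6 (mm10) or within 2 kb on either side and was listed in all 4 samples of the series. The 8 genes hold 92 such sites among the 996020 sites listed in all 4 samples. The genes were chosen by results of these same files, the ratios of HpaII and glucosylated signal to MspI in the 4 samples with Cryab lower after infarction among them, so their values are a description and no test is given on them. The samples were left ventricle of C57BL/6 mice aged 8 weeks, all taken 3 days after myocardial infarction. The 4 groups were non-infarcted ventricle of wild-type mice, infarcted ventricle of wild-type mice, non-infarcted ventricle of Neil3-/- mice and infarcted ventricle of Neil3-/- mice. Each group is 1 sample, so no difference between groups has a replicate check, and the labels state neither how many mice went into a sample nor whether the 2 tissues of a genotype came from the same hearts. Both tissues came from mice with an infarct, so the non-infarcted ventricle is not that of an unoperated animal. Neil3-/- mice are called Neil3-null below, and 4 values in a row follow the order of groups just given.

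Small heat shock proteins are chaperones that need no ATP. They bind partly unfolded proteins and hold them until chaperones of the Hsp70 family refold them or the cell degrades them. Heart muscle carries unusually large amounts of several of them, where Cryab (alpha-B-crystallin) binds desmin and titin and Hspb7 binds filamin C. Bag3 joins Hspb8 to Hsp70 and directs damaged sarcomere proteins to autophagy. Neil3, the gene deleted here, encodes a DNA glycosylase of base excision repair.

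HMST-seq counts short tags next to CCGG sites in 3 libraries per sample. HpaII cuts only where the inner cytosine carries neither 5-methylcytosine (5mC) nor 5-hydroxymethylcytosine (5hmC). MspI cuts in all these cases. MspI after glucosylation no longer cuts where 5hmC is present, so this C+mC library reads unmodified and methylated sites. The unmodified index used below is the summed HpaII signal of a gene's window as a percent of its summed MspI signal. A lower index can mean relatively more modified DNA, but the index also falls where the MspI signal of the window is larger. The C+mC ratio is the summed signal of the glucosylated library as a percent of MspI. As deposited, the libraries of a sample have nearly equal total signal, so both are relative values that pass 100% wherever a window takes a larger share of the first library than of MspI. They are not shares of DNA molecules. The median gene among 18540 protein-coding genes with at least 3 sites had an index of 115% in non-infarcted wild-type, 120% in infarcted wild-type, 118% in non-infarcted Neil3-null and 121% in infarcted Neil3-null ventricle.

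The files listed between 1060295 and 1079784 sites per sample, and the signal of a library summed to between 34161800 and 43985400. How many tags lie behind a value is not known, so no counting error can be attached to it. The glucosylated library of wild-type non-infarcted ventricle stood apart. Its correlation across sites with its own MspI library, on a log2 scale, was 0.551, against 0.709 to 0.735 in the other samples. The MspI libraries were the most alike between samples, with correlations of 0.941 to 0.959, against 0.856 to 0.885 for HpaII. Within the span of Neil3 (chr8, 53586867 to 53639065), 19 and 17 sites were listed in the wild-type samples and 17 and 15 in the Neil3-null samples. Of them, 1 site was listed in both wild-type samples and in neither Neil3-null sample, and the labels do not say which part of the gene was deleted.

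The windows lie on 5 chromosomes. Cryab (gene ID 12955) spans chr9 from 50745951 to 50756636 and holds 17 sites, of which 1 also falls in the span of 2310030G06Rik. Hspb2 (69253) lies inside that span, from 50751072 to 50752354, and all its 9 sites are also sites of Cryab, so the 8 genes give 7 separate windows. Hspb1 (15507) spans chr5 from 135887919 to 135889563 with 6 sites, and Hspb8 (80888) spans chr5 from 116408491 to 116422864 with 16 sites. Hspb6 (243912) spans chr7 from 30552535 to 30555443 with 11 sites, of which 4 also fall in the span of Lin37 and 1 in that of Proser3. Hspb7 (29818) spans chr4 from 141420779 to 141425310 with 12 sites, and Hspb3 (56534) spans chr13 from 113662896 to 113663676 with 4 sites. Bag3 (29810) spans chr7 from 128523583 to 128546981 with 26 sites. Exons, introns and untranslated regions could not be placed, because the gene table used here gives only the start and end of each gene.

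RefSeq promoters, from 250 bases before a transcription start to 50 bases after it, were at hand for 6 of the 8 genes in 7 windows. They show where the assayed sites lie relative to a motif of the heat shock response. Heat shock factors bind inverted repeats of the unit nGAAn, and the 8-letter core searched was GAANNTTC, which reads the same on both strands. It was found in 5 of these 7 windows, each of another gene, against 7.86% of 32851 promoter windows of the same length, and Hspb1 held 2 copies, against 0.344% of windows with 2 or more. The other arrangement, TTCNNGAA, occurs in 8.52% of windows and was found in none of the 7. A match is a run of letters and not a measured binding site. The sequences below run 5′ to 3′ on the strand of the gene, from GRCm38.p6. Given are the promoters that hold both a listed CCGG and the core between 250 bases before and 30 bases after the start, and for Bag3 the 30 bases that end with the core. Capitals mark CCGG and GAANNTTC.
Hspb1, chr5:135887669-135887948, plus strand: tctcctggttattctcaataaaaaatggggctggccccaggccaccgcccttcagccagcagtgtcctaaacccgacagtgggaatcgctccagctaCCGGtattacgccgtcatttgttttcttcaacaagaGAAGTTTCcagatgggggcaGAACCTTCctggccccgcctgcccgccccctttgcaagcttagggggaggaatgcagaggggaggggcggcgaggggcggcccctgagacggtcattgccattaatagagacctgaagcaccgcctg
Hspb6, second start, chr7:30553051-30553330, plus strand: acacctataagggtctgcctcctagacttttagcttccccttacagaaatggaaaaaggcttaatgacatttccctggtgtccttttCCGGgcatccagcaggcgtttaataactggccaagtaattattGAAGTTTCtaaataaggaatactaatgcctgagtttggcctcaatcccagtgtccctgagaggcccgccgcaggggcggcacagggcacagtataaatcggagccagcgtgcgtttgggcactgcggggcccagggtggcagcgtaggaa
Hspb8, chr5:116422835-116423114, minus strand: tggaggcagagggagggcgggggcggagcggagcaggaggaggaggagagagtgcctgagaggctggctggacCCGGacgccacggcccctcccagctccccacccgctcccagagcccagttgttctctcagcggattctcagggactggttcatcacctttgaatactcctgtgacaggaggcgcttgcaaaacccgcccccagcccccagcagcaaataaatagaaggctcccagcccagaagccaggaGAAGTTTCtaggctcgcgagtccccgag
Bag3, chr7:128523603-128523632, plus strand: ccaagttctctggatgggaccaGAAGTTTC
In Hspb1 the CCGG begins 153 bases before the start and the cores 117 and 97 bases before it. In Hspb6 the CCGG begins 163 bases and the core 120 bases before the second start. In Hspb8 the CCGG begins 177 bases before the start, and the core lies just past the start. Hspb3 has the core, as GAATTTTC, 224 bases before its start and a listed CCGG 41 bases after it. Hspb7 has a listed CCGG 78 bases before its start and no core in this window. The 2 CCGG of the Bag3 promoter, at 128523368 and 128523403, were not among the listed sites, and its core begins 43 bases past the start.

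Except Bag3, which was near it, the genes had an index above that of the median gene in all 4 samples. Hspb3 was the highest of the 8 in each sample, with an index of 250% in non-infarcted wild-type, 201% in infarcted wild-type, 283% in non-infarcted Neil3-null and 208% in infarcted Neil3-null ventricle. Bag3 stood at 119%, 113%, 125% and 119% in the same order of samples. The median over the 8 genes was 179%, 162%, 175% and 176%. HpaII signal was at least 200% of MspI in all 4 samples at 29 of the 92 sites (31.5%), against 17.8% of the sites of the series. It was at most 50% of MspI in all 4 samples at 4 sites (4.35%), against 15.7% of the sites of the series. The promoter sites printed above for Hspb1, Hspb6 and Hspb8 had HpaII signal well above MspI signal. The Hspb1 site read 380%, 387%, 362% and 294%, and the Hspb6 site read 682%, 817%, 706% and 570%. The Hspb8 promoter site read 834%, 1754%, 1073% and 2348%, but on MspI signals of only 3.85 to 8.68, so its ratio is loosely set. The Hspb7 site before the start differed from these, with 82.4%, 71.3%, 91.1% and 65.5%.

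**Figure D1:**
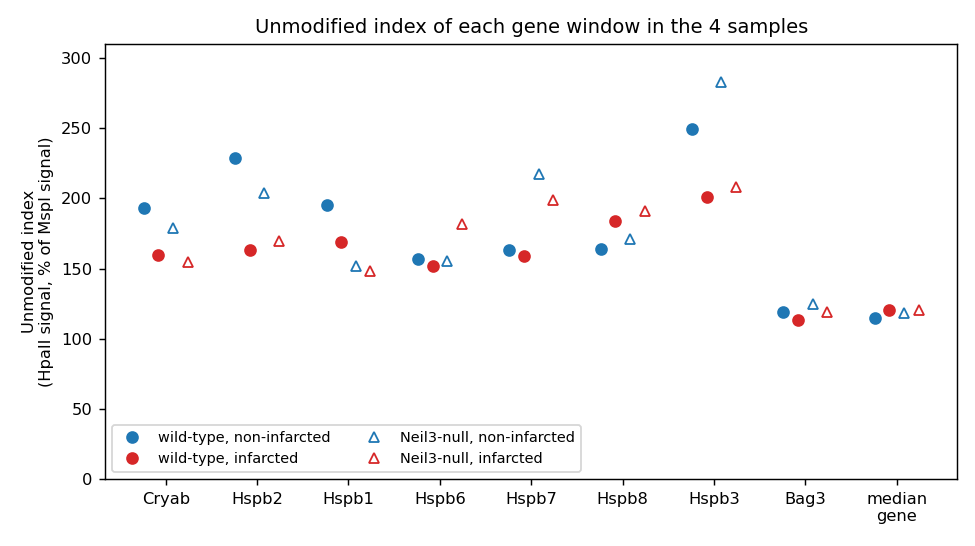
Unmodified index (HpaII signal as a percent of MspI signal, summed over the sites of a window) of the 8 genes in the 4 samples, 1 point per sample. The median gene lies between 115% and 121%, Bag3 lies near it and the other genes above it.

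Between the non-infarcted and the infarcted ventricle the index of Cryab, Hspb2 and Hspb3 was lower by at least 20 percentage points in both genotypes. In wild-type mice 4 of the 8 genes were lower by at least 20 points (Cryab, Hspb2, Hspb1 and Hspb3) and 0 were higher, against 4.49% of all genes lower and 13.6% higher. In Neil3-null mice 3 were lower (Cryab, Hspb2 and Hspb3) and 1 was higher (Hspb6), against 3.99% and 8.36% of all genes. Lower by that much in both genotypes were 0.825% of all genes. At any size, 6 of the 8 genes were lower in both genotypes and 1 was higher, against 16.0% and 44.6% of all genes. Among the 5160 genes with a mean index of at least 150%, 11.1% were lower in wild-type, 9.44% in Neil3-null and 2.25% in both. Since Cryab and Hspb2 share sites, the count with the sites of Hspb2 taken once was 3 in wild-type and 2 in Neil3-null mice. The genes just outside the limit of 20 points were Hspb8, at 19.6 in wild-type and 19.98 in Neil3-null mice, and Hspb7, at -19.1 in Neil3-null mice. The median difference over the 8 genes was -15.8 points in wild-type and -12.1 in Neil3-null mice, and that of all genes 4.87 and 2.07. With the libraries rescaled on sites in dense clusters at gene ends, Hspb2 and Hspb3 stayed lower by at least 20 points in wild-type and Hspb3 in Neil3-null mice. Because the choice of genes used these contrasts, the counts beside the background are read as a description only.

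**Figure D2:**
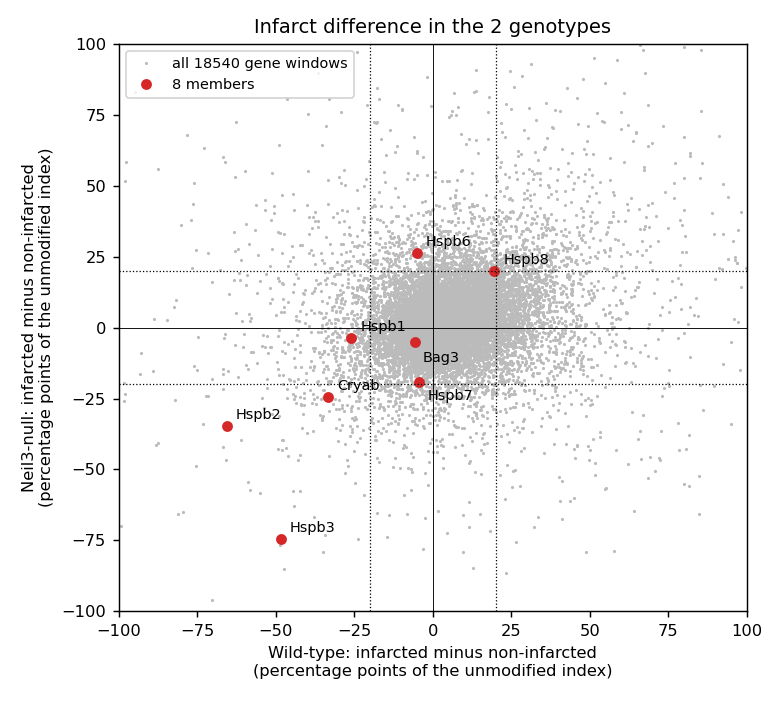
Infarct difference of the unmodified index in percentage points, wild-type on the horizontal and Neil3-null on the vertical axis, with the 8 genes over all genes with at least 3 sites. Cryab, Hspb2 and Hspb3 lie lower in both genotypes and Hspb8 lies higher in both, and 144 gene windows lie outside the plotted range.

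Cryab, whose product guards the desmin network and the Z-disc, had an index of 193% in wild-type non-infarcted and 160% in wild-type infarcted ventricle. In Neil3-null mice it was 179% and 154%. The differences were -33.4 and -24.5 points, and leaving out any 1 of the 17 sites left them between -43.7 and -26.3 and between -27.4 and -20.2. The non-infarcted sample was the higher one in each genotype. The larger part of the difference lay in the Hspb2 window, which is the Hspb2 span with 2 kb on either side. Over the 9 sites of the Hspb2 window the index was 229%, 164%, 204% and 169%, with differences of -65.5 and -34.7 points. Over the other 8 sites of Cryab it was 149%, 154%, 144% and 134%, with differences of 4.87 and -9.30 points, both inside the limit. The result depended on how sites were combined. With the median of the site ratios in place of the ratio of sums, the Neil3-null differences were 1.58 points for Cryab and 7.52 for Hspb2, and the wild-type difference of Hspb2 was -17.8, inside the limit. With each site ratio clipped at 300% and averaged, the Cryab differences were -19.99 in wild-type, just inside the limit, and -14.3 in Neil3-null mice, and with a 5 kb window the latter was -16.0.

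Within the Hspb2 window, the 3 sites inside the Hspb2 span gave 153%, 108%, 166% and 133%, and the 3 sites at lower coordinates gave 227%, 185%, 213% and 169%. The differences were -44.5 points in wild-type and -33.3 in Neil3-null mice inside the span, and -42.4 and -44.5 at the lower coordinates. The 3 sites at higher coordinates gave 548%, 309%, 289% and 277%, with differences of -240 and -12.3 points, so the wild-type non-infarcted sample alone lay high there. Its site at 50753092 read 689% in non-infarcted wild-type, 284% in infarcted wild-type, 169% in non-infarcted Neil3-null and 196% in infarcted Neil3-null ventricle. The MspI signal there was 16.3, 25.1, 46.5 and 29.6, so the wild-type non-infarcted sample had both the highest ratio and the lowest MspI signal. Its neighbour at 50753215, 123 bases away, was lower after infarction in both genotypes, with 680% and 432% in wild-type mice and 666% and 386% in Neil3-null mice. Inside Hspb2, the site at 50751375 read 153% and 90.4% in wild-type mice and 172% and 130% in Neil3-null mice, on MspI signals of 89.0 to 101. The site at 50752335 read 199% and 135%, then 169% and 119%. Over the whole Cryab window 9 of 17 sites were lower after infarction in both genotypes, 6 of them in the Hspb2 window, against 26.2% of the sites of the series.

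**Figure D3:**
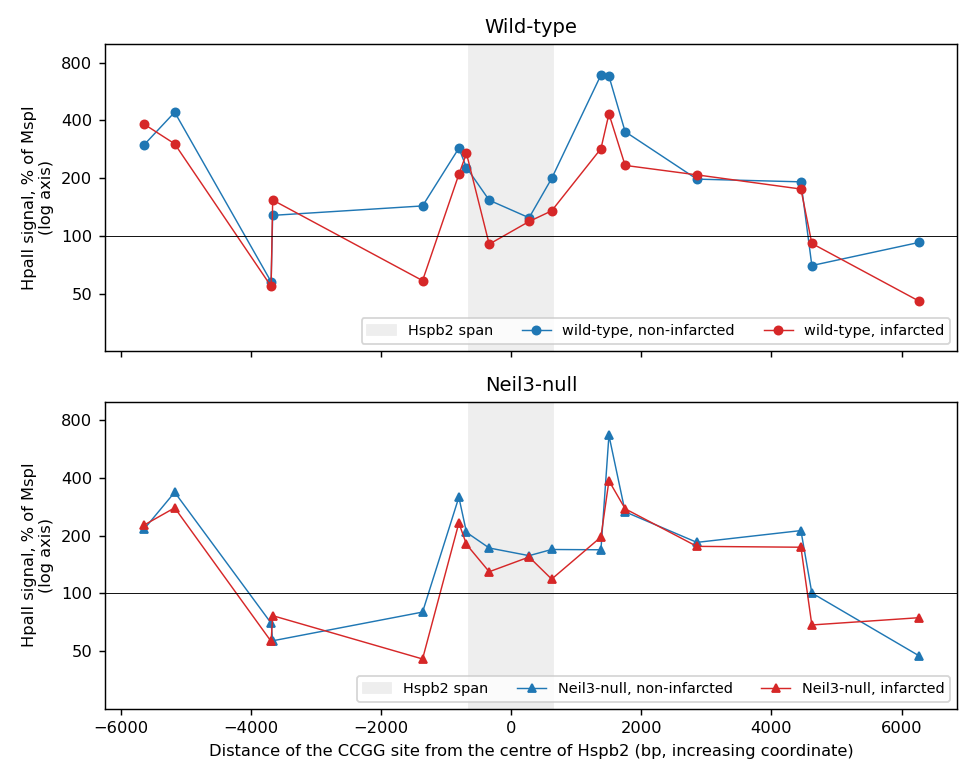
HpaII signal as a percent of MspI signal at the 17 sites of the Cryab window in the 4 samples, on a log axis, by distance from the centre of Hspb2, with its span shaded. The 2 sites nearest the Hspb2 span at higher coordinates carry the highest wild-type non-infarcted ratios (689% and 680%). At 50753215 both infarcted samples lie below both non-infarcted ones.

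Hspb3, a muscle protein that forms a complex with Hspb2, had differences of -48.4 points in wild-type and -74.6 in Neil3-null mice, on only 4 sites. Leaving out any 1 site left them between -54.2 and -37.1 and between -111 and -61.1. Its site at 113663287, inside the gene, read 396% and 313% in wild-type mice and 459% and 348% in Neil3-null mice. The site at 113662969 read 185% and 150%, then 220% and 144%. The site at 113661475, outside the gene, read 86.1% and 34.4%, then 85.5% and 59.7%. At these 3 sites the infarcted sample was the lower one in each genotype. The site near the start, at 113663633, went the other way in wild-type mice, with 695% and 754%, and was 933% and 898% in Neil3-null mice. With the window widened to 5 kb the differences of Hspb3 were -15.6 and -24.2 points, and with site ratios clipped at 300% -21.7 and -25.3.

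Hspb1 (Hsp25 in mice), which binds actin and is a target of stress kinases, had an index of 195% in wild-type non-infarcted and 169% in wild-type infarcted ventricle. In Neil3-null mice it was 152% and 148%. The differences were -26.0 and -3.77 points. Without the site at 135889101, which read 170% and 115% in wild-type mice, the wild-type difference was -12.8 points and inside the limit, as it was at -15.7 with a 5 kb window, where the Neil3-null difference turned to 13.1. The site at 135889191 read 507% in wild-type non-infarcted ventricle and 297% to 339% in the other 3 samples. The promoter site read 380% and 387% in wild-type mice and read 362% and 294% in Neil3-null mice.

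Hspb6 (Hsp20), a target of protein kinase A in heart muscle, differed by -5.14 points in wild-type and by 26.2 points in Neil3-null mice. Its index was 157%, 152%, 155% and 182%, so the Neil3-null infarcted sample alone lay high. Without the site at 30551840, which falls before the gene, the differences were 8.76 points in wild-type and 17.6 in Neil3-null mice, so both were higher. This site read 206% and 130% in wild-type mice and 178% and 297% in Neil3-null mice. The median of the site ratios in place of the ratio of sums gave -60.9 and -18.8 points, and the span alone gave 25.8 and 13.1, so the opposite direction in the 2 genotypes did not hold under these settings. The site at the first start, 30552496, had MspI signals of 0.655 to 2.67 and ratios from 761% to 4951%, and is too thin to order the samples.

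Hspb8 and Bag3 form one complex. Hspb8 had 164% and 184% in wild-type mice and 171% and 191% in Neil3-null mice, the infarcted sample being the higher one in each genotype. Leaving out any 1 of its 16 sites left the differences between 13.3 and 33.5 and between 11.2 and 40.3 points. They were 81.7 and 58.4 points with the median of site ratios and 23.6 and 24.1 with a 5 kb window, past the limit, but 9.46 and 12.1 over sites with a mean signal of at least 20, and 7.52 in Neil3-null mice with the span alone. At 6 of the 16 sites (37.5%) the ratio was higher after infarction in both genotypes and at 3 (18.8%) lower, against 26.7% and 26.2% of the sites of the series. Among the 6 higher sites, those at 116415865, 116422754 and 116423038 had MspI signals under 10 in all 4 samples, so their ratios are loosely set. The 2 sites at the start of Hspb8 read highest. That at 116422754 had 894% and 2040% in wild-type mice and 1059% and 1249% in Neil3-null mice, with HpaII signals of 86.4 to 100 and MspI signals of 4.57 to 9.66. Bag3 differed by -5.61 points in wild-type and -5.23 in Neil3-null mice. Leaving out any 1 of its 26 sites left the wild-type difference between -8.69 and -3.21. The direction of Bag3 depended on the summary: the median of site ratios gave 18.0 and 4.78 points, and in wild-type mice a 5 kb window gave 1.21 and clipped site ratios 1.52. Of its sites 12 (46.2%) were lower and 6 (23.1%) higher after infarction in both genotypes, the latter near the 26.7% of the series. Hspb7 differed by -4.53 and -19.1 points, and 8 of its 12 sites (66.7%) were lower in both genotypes, against 26.2% of the series. With the median of site ratios these differences were -70.7 and 11.3 points, so the Neil3-null direction turned.

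Over the 92 sites, 40 (43.5%) were lower after infarction in both genotypes, against 26.2% of the sites of the series, and 18 (19.6%) were higher in both, against 26.7%. Large differences at single sites were no more frequent than in the series, except for 2-fold lower ratios in wild-type mice, which were near the background. In wild-type mice 8 sites (8.70%) were at least 2-fold lower, against 8.08% of the series, and in Neil3-null mice 2 (2.17%), against 6.41%. At least 2-fold higher were 3 sites (3.26%) in each genotype, against 8.37% and 7.04%.

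The index is a quotient, and its parts were unlike among the genes. Each part is given as a share of its library scaled to a library total of 1000000. The HpaII share of Cryab was 32.5 in non-infarcted wild-type, 27.1 in infarcted wild-type, 30.5 in non-infarcted Neil3-null and 28.0 in infarcted Neil3-null ventricle, and its MspI share 16.7, 17.6, 17.6 and 18.97. After infarction the HpaII share was thus lower and the MspI share higher in both genotypes. The same held for Hspb2, with HpaII shares of 21.3, 16.9, 20.3 and 17.5, and for Hspb3, with 6.87, 5.58, 6.79 and 5.47. It also held for Hspb7 and Bag3, whose index differed by less than 20 points. In wild-type and Neil3-null mice the HpaII share of Hspb7 was 0.951 and 0.970 times that of non-infarcted ventricle, and its MspI share 1.03 and 1.08 times. For Bag3 the HpaII share was 0.941 and 0.943 times and the MspI share 1.04 and 1.0004 times. For Hspb1 the wild-type difference lay in MspI. Its HpaII share after infarction was 0.978 times that before, and its MspI share 1.18 times. For Hspb6 in Neil3-null mice the HpaII share was 1.03 times and the MspI share 0.895 times that of non-infarcted ventricle. Hspb8 had HpaII ratios of 1.03 and 0.988 and MspI ratios of 0.965 and 0.899 in wild-type and Neil3-null mice. MspI reads a CCGG whatever its modification, and its shares differed here nonetheless; the part that this has in the index differences was not tested.

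**Figure D4:**
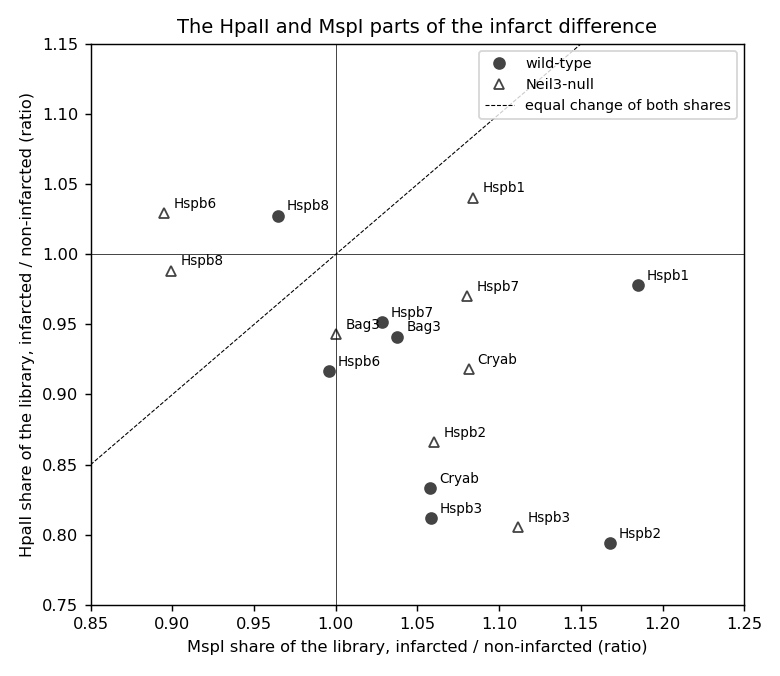
Infarcted over non-infarcted ratio of the share of the HpaII library (vertical) and of the MspI library (horizontal) taken by each gene, in wild-type and Neil3-null mice. In both genotypes Cryab, Hspb2, Hspb3, Hspb7 and Bag3 lie at an HpaII ratio below 1 with an MspI ratio above 1. The MspI ratio of Bag3 in Neil3-null mice is 1.0004. The points of Hspb6 and Hspb8 in Neil3-null mice lie at MspI ratios of 0.895 and 0.899.

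Infarcted heart muscle is known to take up leukocytes and to lose cardiomyocytes, and the index of marker genes of these cells also differed between the tissues. Of 23 cardiomyocyte marker genes, 13 had a lower index in both genotypes and 5 a higher one, with median differences of -6.79 points in wild-type and -6.40 in Neil3-null mice. Of all genes 16.0% were lower and 44.6% higher in both genotypes. Past 20 points, 4 were lower and 3 higher in wild-type mice, and 4 lower and 2 higher in Neil3-null mice, against 4.49% and 13.6%, and 3.99% and 8.36%, of all genes. Their median index was 136%, 130%, 139% and 131%. Gja1, the gap junction gene of the ventricle, differed by -44.5 and -23.6 points and Nppb, a natriuretic peptide gene, by 105 and 34.0. Of 18 measured leukocyte marker genes out of 20, 11 were higher in both genotypes and 1 lower, with median differences of 10.1 and 6.01 points, beside 4.87 and 2.07 for all genes. Their median index was 101%, 121%, 107% and 115%. Among them the granule enzyme gene Mpo differed by 37.6 and 22.5 points and the transcription factor gene Irf8 by 23.8 and 24.3. The 12 endothelial genes had medians of -3.86 and -0.264 points and the 10 fibroblast genes 10.4 and 6.68. An index of 0 could not occur in a measured window, because the lowest HpaII signal of a listed site was 1.01 to 3.16 in the 4 samples. A different mix of cells and a different modification within cells cannot be told apart in DNA of whole tissue, and the part of the cell mix in the differences of the small heat shock protein genes was not tested.

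Between genotypes, Hspb7 and Hspb1 were the genes that differed by at least 20 points in both tissues. In non-infarcted ventricle 2 of the 8 genes were lower in Neil3-null mice (Hspb1 and Hspb2) and 2 higher (Hspb7 and Hspb3), against 4.87% and 6.21% of all genes. In infarcted ventricle 1 was lower (Hspb1) and 2 were higher (Hspb6 and Hspb7), against 7.38% and 5.87%. Hspb7, the cardiac family member that binds filamin C, had an index of 164% and 159% in the wild-type samples and 218% and 199% in the Neil3-null samples. Both Neil3-null samples lay above both wild-type samples, as in 21.6% of all genes, and the differences were 54.1 points in non-infarcted and 39.6 in infarcted ventricle. Leaving out any 1 of the 12 sites left them between 44.7 and 71.5 and between 34.5 and 54.1. With site ratios clipped at 300% the differences were 11.7 points, inside the limit, and 20.6. The median of site ratios gave 25.6 and 108, and a 5 kb window 28.6 and 27.4. Its HpaII share was 1.10 and 1.12 times that of wild-type mice and its MspI share 0.860 and 0.903 times. The site at 141421699 read 481% and 331% in wild-type mice and 660% and 504% in Neil3-null mice. Of its sites 6 of 12 were higher in Neil3-null mice in both tissues, against 25.5% of the sites of the series.

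Hspb1 went the other way, with differences of -43.3 points in non-infarcted and -21.1 in infarcted ventricle. Leaving out any 1 site left the first between -58.6 and -30.6, and without the site at 135885942 the second was -15.1 and inside the limit. With the span alone the second was -10.5 points, and with a 5 kb window 0.451. Both Neil3-null samples lay below both wild-type samples, as in 9.32% of all genes. Its HpaII share was 0.923 and 0.982 times that of wild-type mice and its MspI share 1.24 and 1.13 times, so the larger part lay in MspI. At 4 of its 6 sites the ratio was lower in Neil3-null mice in both tissues, against 25.3% of the sites of the series. The other genotype differences past the limit held in 1 tissue each. Hspb2 differed by -24.9 points in non-infarcted and 5.83 in infarcted ventricle, and the first was -1.23 without the site at 50753092 and 13.7 with the span alone. Hspb3 differed by 33.3 and 7.14 points, and the first was 15.7 without the site at 113663633 and 74.4 without that at 113661475. It was 8.53 with clipped site ratios. Hspb6 differed by -1.74 and 29.6 points, and the second was 11.6 without the site at 30551840 and -17.1 with the span alone. The differences of Cryab were -14.3 and -5.43 points, those of Hspb8 6.54 and 6.96, and those of Bag3 5.56 and 5.94.

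In the C+mC library 5hmC sites are shielded from MspI. A ratio below that of the median gene, which was 104%, 100%, 102% and 102%, would mean a relatively larger 5hmC part if the libraries shared a scale. Bag3 was the only one of the 8 genes below the median gene by more than 10 points in all 4 samples, with 79.1%, 85.5%, 75.9% and 80.6%. Its unmodified index was above this ratio in all 4 samples, at 119%, 113%, 125% and 119%. The median gene likewise had an index above its C+mC ratio in all 4 samples, with an index of 115%, 120%, 118% and 121%. The libraries have no known common scale, so the low ratio of Bag3 is not read as 5hmC here. The part of 5hmC in it was not tested. Cryab had C+mC ratios of 186%, 159%, 149% and 148%, so its wild-type non-infarcted sample was high, which is the sample whose glucosylated library stood apart. The wild-type infarct differences of this ratio were past 20 points, all lower, in Cryab (-26.2), Hspb2 (-38.5) and Hspb6 (-23.7), against 17.7% of all genes lower and 2.82% higher. Leaving out 1 site took that of Hspb6 to -9.18 and that of Cryab to -19.8, inside the limit. The median of site ratios gave -5.66 for Cryab and 27.7 for Hspb6, and clipped ratios gave 11.0 for Hspb6 and -18.9 for Hspb2, so the direction of Hspb6 turned. In Neil3-null mice 0 of the 8 genes passed 20 points, against 4.67% lower and 2.49% higher. There the differences ran from -18.6 in Hspb1 to 13.7 in Hspb8. Because the glucosylated library of the wild-type non-infarcted sample stood apart, the wild-type differences rest on it, and its part in them was not tested. The same holds of the genotype difference in non-infarcted ventricle, where the C+mC ratio was lower by at least 20 points in Neil3-null mice in 4 of the 8 genes (Cryab, Hspb2, Hspb1 and Hspb6) and higher in 1 (Hspb3), against 12.9% and 3.48% of all genes. In infarcted ventricle 1 was lower (Hspb1) and 0 were higher, against 3.32% and 4.42%. With the dense-cluster scaling Cryab (-18.1), Hspb2 (-18.9), Hspb1 (-13.4) and Hspb6 (-10.8) were inside the limit in non-infarcted ventricle. Leaving out 1 site there gave -17.5 for Hspb1, -16.0 for Hspb6 and 9.32 for Hspb3. The median of site ratios gave -15.1 for Hspb1 and turned Hspb6 to 2.55. In infarcted ventricle Hspb1 was at -18.4 without 1 site and at -13.5 with clipped ratios.

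Along Bag3, ratios of at most 50% in all 4 samples were found at 3 of the 26 sites. The site at 128525807 read 24.4%, 15.2%, 27.0% and 20.9%, the site at 128536803 read 23.5%, 34.7%, 21.9% and 11.9%, and the site at 128545660 read 21.6%, 22.2%, 44.4% and 35.5%. MspI signals at these sites lay between 31.4 and 50.1, and all lie inside the gene. Their HpaII ratios were also under 100%, for example 78.8%, 32.9%, 69.6% and 55.1% at 128525807, and in every sample the HpaII ratio there was at or above the C+mC ratio. Within Hspb8 the site at 116411104 was of the same kind, with 37.9%, 31.8%, 43.0% and 43.6%. In all, 4 of the 92 sites (4.35%) had such ratios, against 4.21% of the sites of the series, which is near the background. The site before the gene at 128523328 had HpaII ratios of 508%, 434%, 660% and 518%.

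**Figure D5:**
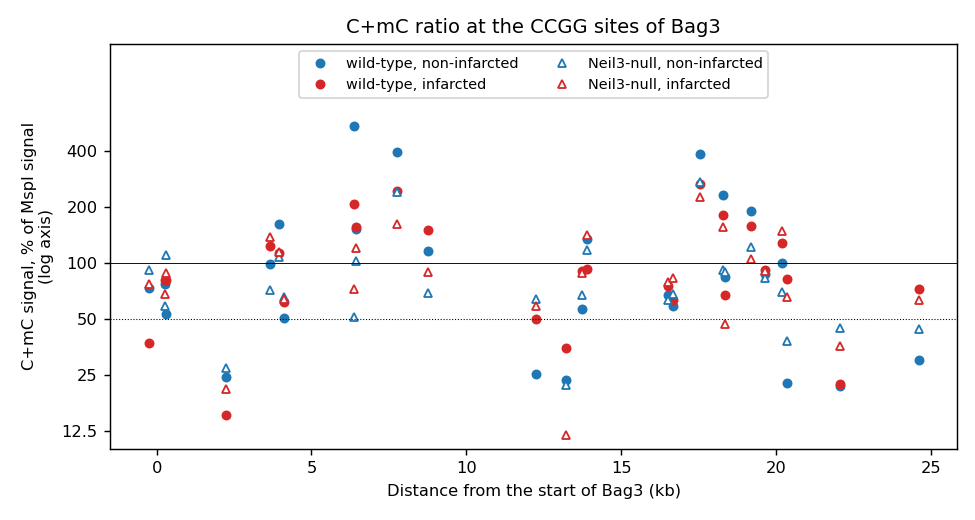
C+mC signal as a percent of MspI signal at the 26 sites of Bag3 in the 4 samples, on a log axis, by distance from the start of the gene span. The dotted line marks 50%, and 3 sites inside the gene stay at or below 50% for C+mC in all 4 samples.

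The wider chaperone network leaned to a higher index after infarction, as did all genes. Over 52 genes of Hsp70, Hsp90, Hsp60, DnaJ, TRiC and Bag families, the median infarct difference was 8.52 points in wild-type and 2.73 in Neil3-null mice, beside 4.87 and 2.07 for all genes. Of them 2 were lower and 9 higher by at least 20 points in wild-type mice, and 4 lower and 5 higher in Neil3-null mice, against 4.49% and 13.6%, and 3.99% and 8.36%, of all genes. The endoplasmic reticulum co-chaperone gene Dnajb9 was lower in both genotypes (-48.7 and -76.8 points on 3 sites), and Tcp1, a subunit of the TRiC ring, was higher in both (61.0 and 58.4). The 4 other small heat shock protein genes (Cryaa, Hspb9, Hspb11 and Odf1) had medians of 23.2 and -2.98 points, and Odf1, a protein of the sperm tail, differed by 34.6 and 22.1. Of the heat shock factor genes, Hsf4 differed by 25.2 and 24.7 points, and the median of the 3 was 25.2 and 15.4. Among 12 partners and clients, which include desmin, titin and the filamins, 0 passed 20 points in wild-type mice and 1 was higher in Neil3-null mice, with medians of -3.65 and -1.94. Among 15595 genes with at least 8 sites, those nearest to Cryab by Euclidean distance of the log2 index over the 4 samples were Eno1 (0.065), Cyp2c38 (0.072) and Atp5md (0.074). Eno1, a glycolytic enzyme gene, had an index of 185%, 160%, 177% and 154%, and likeness over 4 samples says nothing of shared control.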

How the data were processed

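HMST-seq of genomic DNA gave 3 libraries for each of 4 samples, 1 sample per group. Per CCGG site and library, the files hold a deposited signal that the authors had normalized. How it was normalized, aligned and filtered, and whether animals were pooled, is not stated in the labels or headers. The submitters' processing notes name mm10. The files count from 0, and 1-based positions of the first C of CCGG are printed. That offset was checked on RefSeq promoter sequences, where 16425 of 44844 CCGG are listed at it and 0 at each of the 6 neighbouring offsets.

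Signal was summed per library over the sites of each protein-coding gene span extended by 2 kb, for sites listed in all 4 samples, and ratios to MspI were taken. Windows needed at least 3 sites, which 18540 of 21627 genes had. With 1 sample per group there is no test and no p-value. Genes were counted at a difference of at least 20 percentage points and sites at a 2-fold ratio. Named were the 8 genes, those of each list past 20 points in the same direction in both genotypes (at most 6) and the 3 genes most like Cryab. Genes and lists were chosen with earlier results of these data known. Exons and the promoters of Cryab and Hspb2 were not used here. Alternatives changed the window, scaling, low-signal filter, summary and size rule. Steps were tested on simulated data and ran in Python 3.11.15 with numpy 2.4.6, pandas 2.3.3 and matplotlib 3.10.9.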

Additional observations from a re-analysis of the deposited data

Results flagged for a closer look

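The infarct difference of the unmodified index of Hspb6 was of opposite direction in the 2 genotypes, -5.14 percentage points in wild-type and 26.2 in Neil3-null mice, so it was 31.4 points higher in Neil3-null mice. With 1 sample per group this difference was not tested. The opposite direction depended on the setting: both genotypes were higher with the span alone (25.8 in wild-type and 13.1 in Neil3-null mice) and without the site at 30551840 (8.76 and 17.6), and both were lower with the median of site ratios (-60.9 and -18.8).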

How the results depend on the processing

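Of 176 values of the infarct differences of the 8 genes under the alternatives, 131 kept their direction and side of the limit, 18 no longer passed it, 14 newly passed it, 10 moved and 3 reversed. The 3 reversals are of differences past the limit, and all came with the median of site ratios in Neil3-null mice: 1.58 for Cryab, 7.52 for Hspb2 and -18.8 for Hspb6. The 10 that moved are differences inside the limit that changed sign, so 13 signs turned in all. In wild-type mice Hspb6 turned to 25.8 (span alone) and 8.76 (1 site left out), and Bag3 to 1.21 (5 kb), 1.52 (clipped) and 18.0 (median). In Neil3-null mice Hspb1 turned to 13.1 (5 kb), 0.393 (dense clusters) and 0.864 (1 site left out), Hspb7 to 11.3 and Bag3 to 4.78 (both median).

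Counts of the 8 genes past the limit depended on the setting as follows, the cause not being tested unless stated. With a window of 5 kb, the infarct count in wild-type was 2 lower and 1 higher, in Neil3-null 2 higher, and the genotype count 1 lower and 1 higher in non-infarcted and 0 lower in infarcted ventricle. Shares of all genes were, in that order, 3.67%, 11.7%, 6.86%, 3.60%, 5.44% and 5.93%. With the span alone, 1 was higher in wild-type and 0 in Neil3-null after infarction, 1 was lower between genotypes in non-infarcted and 0 in infarcted ventricle, and 1 was lower for the C+mC ratio in Neil3-null. Shares of all genes were then 13.0%, 8.17%, 5.31%, 7.89% and 5.33%. Scaling on 5712 sites in dense clusters multiplies HpaII by 0.471 to 0.501, which lowers every index while the limit stays at 20 points. The infarct counts were then 2 lower in wild-type and 1 lower and 0 higher in Neil3-null, the genotype counts 0 lower and 1 higher in non-infarcted and 0 lower and 1 higher in infarcted ventricle, and the wild-type C+mC counts 0 lower and 1 higher. In the same order, all genes had shares of 1.197%, 0.599%, 3.07%, 0.955%, 1.66%, 0.863%, 2.64%, 2.84% and 8.93% under this scaling. The density of these clusters, 5 sites, was chosen after seeing the data, because only 6 sites met the planned 10, which was not run. With site ratios clipped at 300%, 2 were lower and 1 higher in wild-type and 0 higher in Neil3-null after infarction, 0 were higher between genotypes in non-infarcted ventricle, and 1 was higher for C+mC in Neil3-null. All genes had shares of 5.12%, 6.37%, 4.68%, 3.39% and 4.34% there. With a mean C+mC and MspI signal of at least 10 or 20 per site, 0 were higher in Neil3-null after infarction (7.21% and 4.96% of all genes), and with 20 also 1 higher between genotypes in non-infarcted ventricle (4.82% of all genes). With the median of site ratios, 1 was higher in wild-type after infarction, 2 were lower between genotypes in infarcted ventricle, and for C+mC 1 was higher in wild-type and 1 lower and 2 higher in Neil3-null. The matching shares of all genes were 21.2%, 19.5%, 7.91%, 11.6% and 9.57%. With a 1.2-fold rule, 0 were higher in Neil3-null after infarction and the genotype counts were 1 lower and 1 higher in non-infarcted and 0 lower and 1 higher in infarcted ventricle. With 10 points, 1 was higher in wild-type and 2 in Neil3-null after infarction. Shares of all genes under this rule and the 1.2-fold rule are not given here, so those counts have no background. With a 1.5-fold rule, 19 of the 92 sites (20.7%) were lower in wild-type, against 18.7% of the series. In Neil3-null 14 (15.2%) were lower, against 15.8%, so both were near the background.

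No paired analysis was possible because each group is 1 sample and no replicate numbers are shared. The number of tags is unknown. Of the 92 sites, 6 had an MspI signal under 10 in all 4 samples, and their ratios limit what the index of Hspb6, Hspb8 and Bag3 can show.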
